A study of Mus musculus with 8 samples.

Results

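The colony-stimulating factors and their receptors are 9 genes that were chosen by symbol: the ligand genes Csf1, Il34, Csf2 and Csf3 and the receptor genes Csf1r, Csf2ra, Csf2rb, Csf2rb2 and Csf3r. All 9 were listed among the 53735 genes of the count tables, and 6 of them (Csf1 and the 5 receptor genes) passed the filter on low counts that left 14418 genes to test. Bulk RNA-seq had been run on 8 libraries of bone marrow derived macrophages (BMDMs), which were split over 2 experiments. WT mice were Mkl1+/+, Apoe-/- and KO mice were Mkl1-/-, Apoe-/-, so that every mouse lacked Apoe, and the Mkl1 deletion was global rather than limited to macrophages. All mice were males of 6 months on the C57BL/6J background that had received angiotensin II (Ang II) at 1.44 mg/kg per day from osmotic minipumps for 7 days, a rate beside which the labels also give a rate per minute that does not match it. No group without Ang II was among these libraries. Marrow was then grown for 7 days in a standard differentiation medium whose growth factor is not given in the sources used here. WT libraries 1 and 2 and KO libraries 5 and 6 made up experiment 1, and WT libraries 3 and 4 and KO libraries 7 and 8 made up experiment 2. The labels do not say whether the libraries came from separate mice, so the p-values measure the spread between these libraries, which may be technical.

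CSF-1 (M-CSF), encoded by Csf1, keeps macrophages alive and drives marrow precursors towards them, and IL-34 is the other ligand of the same receptor tyrosine kinase, CSF-1R. GM-CSF, encoded by Csf2, binds a complex of its own alpha chain (Csf2ra) with a beta chain (Csf2rb) that the IL-3 and IL-5 receptors share. The mouse has an additional beta chain, Csf2rb2, that serves the IL-3 receptor. G-CSF, encoded by Csf3, acts through CSF-3R and is best known for driving neutrophil production. BMDMs are commonly grown with added CSF-1 protein, which RNA-seq does not measure, so the levels given here are those of the cells' own transcripts.

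The 2 beta chain genes are shown first, because their likeness bears on how their reads could be assigned. Csf2rb (chr15:78325752-78353847, plus strand, GRCm38, GENCODE M21) and Csf2rb2 (chr15:78282507-78305721, minus strand) are protein-coding neighbours. Their coding sequences were identical at 2503 of 2628 aligned bases (95.2%), and the longest identical run was 242 bases. Of the 50-base stretches of Csf2rb exons, 12.3% also occurred in Csf2rb2, and 18.4% of those of Csf2rb2 occurred in Csf2rb. For 100-base stretches the shares were 4.63% and 6.82%, and the read length is not given in the sources used here. The 90 coding bases in which the pair differed most, with 16 differences in capitals, were bases 308 to 397 of Csf2rb and 311 to 400 of Csf2rb2:
Csf2rb: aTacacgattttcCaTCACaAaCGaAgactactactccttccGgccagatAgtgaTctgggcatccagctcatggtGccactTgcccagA
Csf2rb2: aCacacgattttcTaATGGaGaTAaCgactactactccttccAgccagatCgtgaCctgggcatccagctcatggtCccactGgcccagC
Reads from stretches such as these can be told apart, while reads from the identical runs cannot, and how the authors' counting treated them is not given in the sources used here. Values of both genes are therefore uncertain by the share of such reads.

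The upstream sequences of Csf1 and Csf2rb2 are shown because these genes had differences of the same sign as each other within each experiment. The 250 bases before the RefSeq start (GRCm38.p6) were read for the 5 of 9 genes with an entry, Csf1, Csf2, Csf2ra, Csf2rb2 and Csf3r. Csf1 lies on chromosome 3 (chr3:107741048-107760469, minus strand, a protein-coding gene), and its upstream bases (chr3:107760470-107760719) held 1 match to the NF-kB motif, in capitals, starting 154 bases before the start:
Csf1: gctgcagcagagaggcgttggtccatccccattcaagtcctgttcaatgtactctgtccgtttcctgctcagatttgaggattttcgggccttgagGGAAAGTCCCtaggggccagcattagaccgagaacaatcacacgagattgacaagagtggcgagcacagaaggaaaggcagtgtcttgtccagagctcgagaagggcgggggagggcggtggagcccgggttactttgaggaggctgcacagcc
The upstream bases of Csf2rb2 (chr15:78305722-78305971) held 1 match to the STAT motif TTCNNNGAA, 15 bases before the start, and 1 match to the PU.1 motif GAGGAA on the other strand, 167 bases before the start, both in capitals:
Csf2rb2: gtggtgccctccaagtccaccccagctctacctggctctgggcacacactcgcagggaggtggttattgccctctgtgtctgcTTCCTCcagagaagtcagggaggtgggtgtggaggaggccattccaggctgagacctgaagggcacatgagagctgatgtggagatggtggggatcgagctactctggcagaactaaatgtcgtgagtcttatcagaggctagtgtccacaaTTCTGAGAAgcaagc
Both strands were searched. Over 32851 mouse windows of the same length, 7.25% held the NF-kB motif, 7.02% TTCNNNGAA and 23.3% GAGGAA. Csf3r held 1 NF-kB match and 1 GAGGAA match, Csf2ra held 2 GAGGAA matches, and the Csf2 window held none of the motifs. The Csf2 window (chr11:54249900-54250149, minus strand) stopped short of the GENCODE start at 54249667, so the bases next to that start were not searched. The Csf3r window (chr4:126024409-126024658, plus strand) ran past its GENCODE start at 126024550. The AP-1 motif TGANTCA (6.75% of windows) and the CArG box bound by SRF (1.47%) had no match in the 5 windows. A match describes letters and no binding was measured.

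Libraries held between 33977799 and 41584540 counts. Levels are given as CPM, the counts scaled to a common library size by TMM. Mkl1, the targeted gene, ranged from 25.6 to 29.5 CPM over WT and from 10.4 to 20.9 CPM over KO. All KO libraries lay below all WT libraries (two-sided exact permutation test, p = 0.0286, or 0.0556 when labels change places only inside an experiment, each the smallest that its 70 or 36 arrangements allow), and Mkl1 still had 435 to 836 counts in the KO libraries. In edgeR's quasi-likelihood test the Mkl1 log2 fold change was -0.39 (SE 0.08, adjusted p = 0.00381) in experiment 1, a call lost with a spread shared by 4 groups (adjusted p = 0.0812), and -1.17 (SE 0.19, adjusted p = 0.0218) in experiment 2, where it lost the call without WT library 3 (adjusted p = 0.0567), WT library 4 (0.054) or KO library 8 (0.0736). With the experiment as an additive term, Mkl1 had -0.78 (SE 0.19, adjusted p = 0.0574). Exons of Mkl1 overlap those of Sgsm3 on the other strand, and whether the counting used strand is not given in the sources used here. Over all tested genes, KO of experiment 2 was nearest to WT of experiment 1, with an SD of 0.41 of their log2 differences against 0.84 to 0.98 for the other 5 pairs of groups. The 7 macrophage markers were detected in all groups and summed to 25275 to 34440 CPM in WT and 15865 to 17665 CPM in KO of experiment 1, and to 13002 to 18366 CPM in WT and 17440 to 24103 CPM in KO of experiment 2. Most of these sums was Lyz2 and Adgre1. In experiment 1 the markers did not move together, with Adgre1 at 8324 and 7098 CPM in WT and 1927 and 1667 CPM in KO, but Cd68 at 884 and 811 CPM in WT and 1450 and 1399 CPM in KO and Mertk at 28.2 and 33.7 CPM in WT and 104 and 90.2 CPM in KO. The 7 fibroblast and stromal markers summed to 174 to 230 CPM in KO of experiment 1 and to at most 11.2 CPM elsewhere, the 3 endothelial markers to 129 to 157 CPM against 44.9 to 71.9 CPM, and the 4 mast cell and basophil markers to 1.27 to 1.3 CPM against at most 0.0244 CPM. The 10 neutrophil markers summed to at most 1.52 CPM, with 5 or 6 of them at 0 in each group, the 4 dendritic cell markers to at most 0.794 CPM and the 4 T and NK cell markers to at most 0.11 CPM. In bulk RNA, fewer cells of a type and less RNA per cell cannot be told apart.

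Levels of the 9 genes were compared as CPM per kilobase of exons. Csf1r came first in all 4 groups, with group means from 167 CPM per kb in KO of experiment 2 to 431 CPM per kb in KO of experiment 1, and it took 0.0762% to 0.264% of all counts of a library, at rank 24 to 124 among genes. Csf2ra followed in all 4 groups at 29.3 to 39.9 CPM per kb. In WT of experiment 1 the order below them was Csf3r at 20.0, Csf2rb at 13.5, Csf2rb2 at 3.31 and Csf1 at 1.08 CPM per kb. In KO of experiment 2 the same order held, with Csf3r at 19.1, Csf2rb at 10.4, Csf2rb2 at 3.43 and Csf1 at 0.699 CPM per kb. In WT of experiment 2, Csf2rb at 30.3 and Csf1 at 18.4 CPM per kb stood above Csf3r at 17.7 and Csf2rb2 at 9.78 CPM per kb, and the libraries of Csf1 lay within the range of those of Csf3r. In KO of experiment 1, Csf2rb at 16.4 CPM per kb was followed by Csf3r at 11.1, Csf1 at 10.1 and Csf2rb2 at 7.24 CPM per kb, and the libraries of Csf3r lay within the range of those of Csf1. The ligand genes Il34, Csf2 and Csf3 came last, with group means of at most 2.24 CPM per kb, which was that of Csf2 in WT of experiment 2. Exon lengths were those of GENCODE M21, since the annotation release behind the counts is not given in the sources used here. Taking the longest transcript in place of all exons moved the levels of Csf2rb to 15.5 to 44.9 CPM per kb and those of Csf1 to 0.884 to 23.2 CPM per kb, and Csf2ra and Csf2rb were then both at 44.9 CPM per kb in WT of experiment 2, so that second place was shared there. Csf1 (12.7) then also stood above Csf3r (11.5 CPM per kb) in KO of experiment 1 with overlapping libraries, and in WT of experiment 2 its libraries no longer overlapped those of Csf3r.

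**Figure D1:**
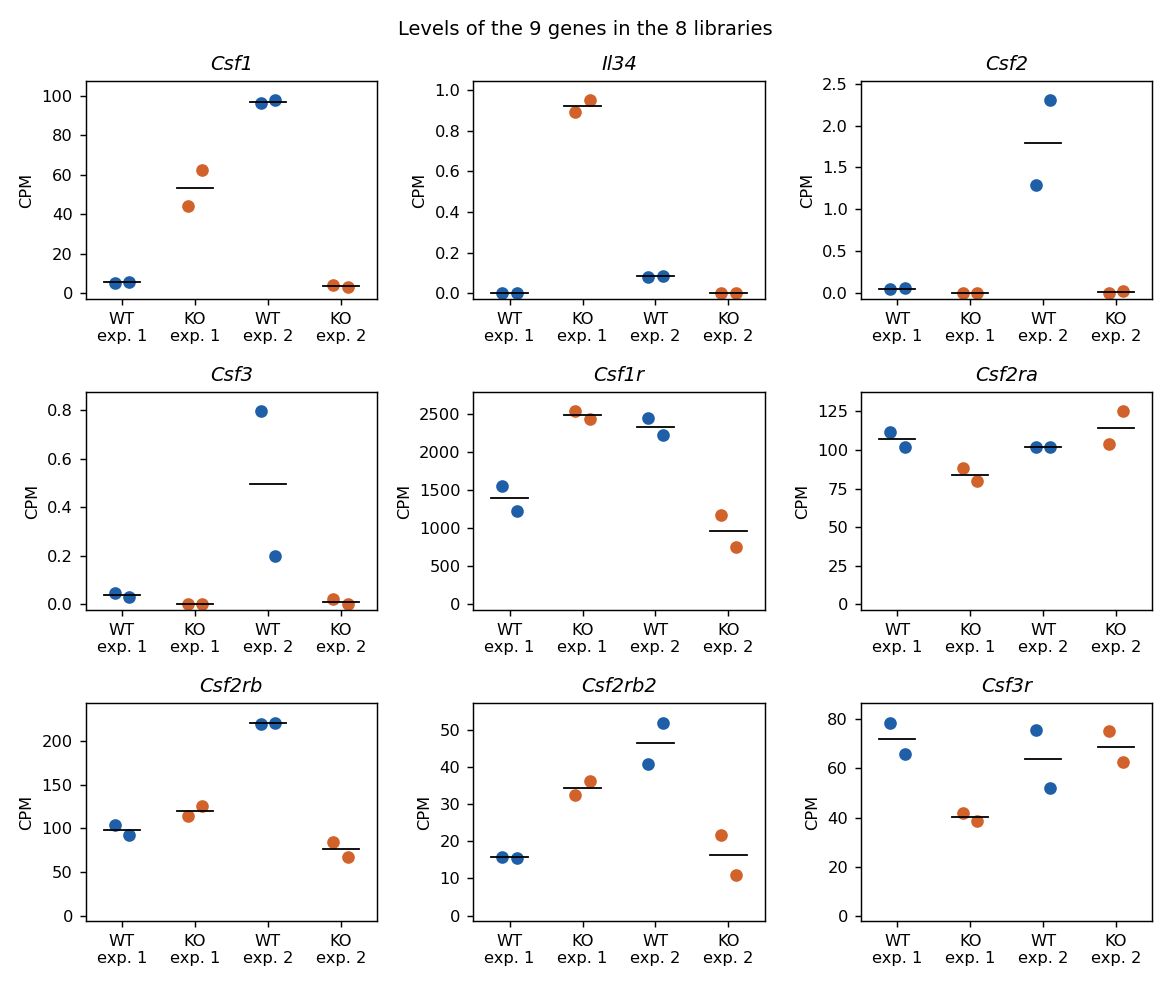
Level of each of the 9 genes in CPM (linear axes from 0, a scale for each gene) in WT (blue) and KO (orange) libraries of both experiments; points are libraries, 2 per group, and the line is their mean. Csf1 was at 3.09 to 5.98 CPM in WT of experiment 1 and KO of experiment 2 and at 44.1 to 97.7 CPM in the other groups, while Il34 stood out in KO of experiment 1 and Csf2 and Csf3 in WT of experiment 2.

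Comparing KO with WT asks whether loss of Mkl1 changed the genes, and it was done within each experiment because the experiments differed. In experiment 1, 6 of 6 tested genes passed the test, 4 higher in KO (Csf1, Csf1r, Csf2rb and Csf2rb2) and 2 lower (Csf2ra and Csf3r), where 55.1% of all tested genes passed, 27.0% higher and 28.1% lower. Under upper-quartile scaling the balance of all genes moved to 4776 higher and 3207 lower from 3892 and 4056, while the 6 genes kept their calls and signs. In experiment 2, 3 of 6 passed, all lower in KO (Csf1, Csf1r and Csf2rb), where 15.8% of all tested genes passed with 8.29% lower and 7.52% higher. The median log2 fold change of the 6 genes was 0.55 in experiment 1 and -1.40 in experiment 2, and that of all tested genes was 0.01 in both. KO and WT libraries did not overlap for 6 of 6 genes in experiment 1 and for 5 of 6 in experiment 2, beside 80.0% and 65.4% of all tested genes. Csf1, Csf1r and Csf2rb passed in both experiments with opposite signs, higher in KO first and lower in KO then, as did 3.23% of all tested genes, with 6.34% called with opposite signs in either order and 4.38% with the same sign. All 6 genes had log2 fold changes of opposite sign and a called interaction, beside 33.6% of all tested genes. The interaction of genotype with experiment, which tests whether both differences are the same, passed for 6 of 6 genes, 4 with a value below 0 and 2 above it, beside 41.6% of all tested genes (20.6% below 0 and 21.0% above). The interaction of Csf2ra fell short without WT library 1, 2, 3 or 4, KO library 6 or KO library 8 (adjusted p from 0.0549 to 0.11), and that of Csf3r without WT library 1, KO library 5 or KO library 6 (adjusted p from 0.0564 to 0.0881). With both experiments in 1 additive fit, 0 of 6 genes passed in edgeR, 0 had an unadjusted p under 0.05, and DESeq2 and limma-voom also called 0, where 7.12% of all tested genes passed in edgeR (3.41% lower and 3.72% higher, which under upper-quartile scaling came to 367 lower and 754 higher genes from 491 and 536). Their adjusted p values there were 0.347 or more. For all 6 genes this fit averaged differences of opposite sign, so the lack of calls is no result apart from those signs.

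**Figure D2:**
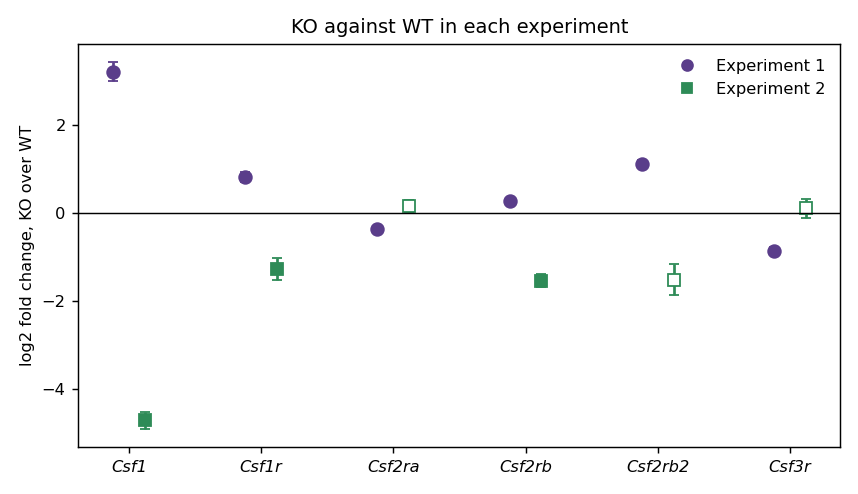
Log2 fold change of KO over WT (vertical axis) for the 6 tested genes, with bars of 1 standard error, in experiment 1 (purple circles) and experiment 2 (green squares); filled symbols passed the adjusted p threshold of 0.05. Csf1 moved from 3.22 in experiment 1 to -4.71 in experiment 2, and the other 5 values also lay on opposite sides of 0, that of Csf2ra, Csf2rb2 and Csf3r in experiment 2 without passing.

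Csf1, the gene of the main macrophage growth factor, had the largest differences of the 6 tested genes in both experiments. It had 5.41 and 5.98 CPM (220 and 204 counts) in WT libraries 1 and 2 and 44.1 and 62.3 CPM (1632 and 2497 counts) in KO libraries 5 and 6. It had 96.1 and 97.7 CPM (3510 and 3402 counts) in WT libraries 3 and 4 and 4.29 and 3.09 CPM (176 and 129 counts) in KO libraries 7 and 8. The 2 high groups thus had different genotypes, and no library of a high group overlapped one of a low group. In experiment 1 Csf1 was 9.3-fold higher in KO (log2 fold change 3.22, SE 0.21, adjusted p = 0.0002), and in experiment 2 it was 26.2-fold higher in WT (log2 fold change -4.71, SE 0.19, adjusted p = 0.00322). The log2 fold change of experiment 2 minus that of experiment 1 was -7.94 (SE 0.30, adjusted p = 5.27e-05). Between experiments, WT of experiment 2 stood 16.9-fold above WT of experiment 1, a difference in which the experiment and anything that changed with it cannot be told apart.

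Csf1 is also made by fibroblasts and endothelial cells, and their markers were set beside it. In experiment 1, 6 of 6 tested fibroblast markers were higher in KO, with a median log2 fold change of 5.12, and 1 of 2 tested endothelial markers was higher. In WT of experiment 2, where Csf1 was highest, the fibroblast markers summed to 8.16 to 8.53 CPM, within the range of the groups in which Csf1 was low. The endothelial markers summed to 49.2 to 49.7 CPM there, also within that range, but most of this sum was Vwf. The endothelial cadherin gene Cdh5 had 1.1 and 0.833 CPM in WT libraries 3 and 4, 0.757 and 0.375 CPM in KO libraries 5 and 6, and 0.171 to 0.469 CPM in the libraries with low Csf1, so that KO library 6 did not stand apart from the latter. In experiment 2 the median log2 fold change was -0.27 for the fibroblast markers and -0.90 for the 2 tested endothelial markers, 1 of which was lower in KO, as was Csf1. The part of such cells in the Csf1 level was not tested in either experiment.

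**Figure D3:**
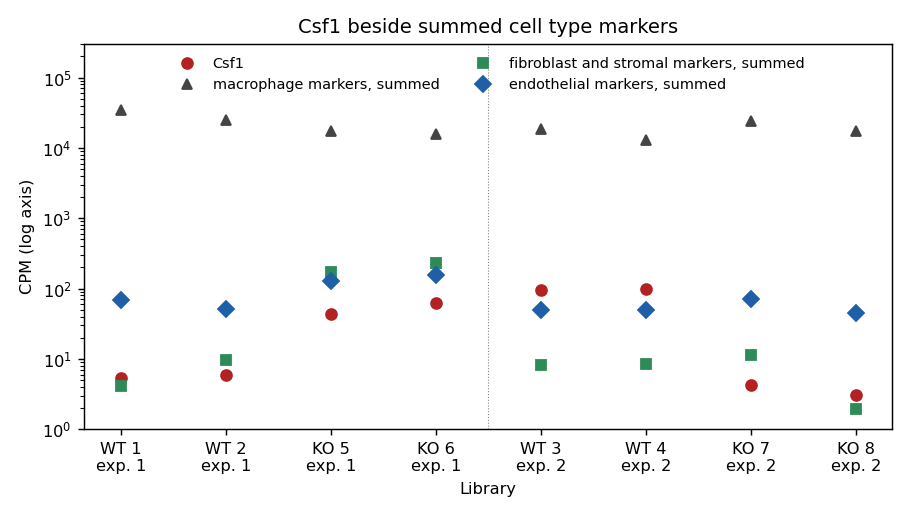
Csf1 (red circles) and the summed CPM of macrophage, fibroblast and stromal, and endothelial markers in each of the 8 libraries (log axis, libraries grouped by experiment). Fibroblast markers reached 174 to 230 CPM in KO libraries 5 and 6, while WT libraries 3 and 4, with the highest Csf1, had 8.16 to 8.53 CPM.

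Il34, the other ligand of CSF-1R, was detected almost entirely in KO of experiment 1. It had 33 and 38 counts (0.892 and 0.949 CPM) in KO libraries 5 and 6, 3 counts in each of WT libraries 3 and 4, and 0 counts in the other 4 libraries. No other group came near the level in KO of experiment 1. With 3 counts in each library of a group at 0 taken as the floor, Il34 in KO of experiment 1 was at least 11.4-fold higher than in WT of experiment 1 and at least 12.7-fold higher than in KO of experiment 2, and 11-fold (95% interval 4.79 to 30.8) higher than in WT of experiment 2. These intervals and floors cover counting error only. KO of experiment 1 was also the group with the highest sums of fibroblast markers, of endothelial markers (nearly all Vwf) and of mast cell and basophil markers (Mcpt8 with 43 and 51 counts, and at most 3 counts of any other). The part of such cells in the Il34 level was not tested. Exons of Il34 overlap the antisense genes Gm15894 and Gm15895, so that without a known strand setting its 77 counts in all may include theirs.

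Csf2 and Csf3 were near the floor outside WT of experiment 2. Csf2 had 47 and 80 counts (1.29 and 2.3 CPM) in WT libraries 3 and 4, 2 counts in each of WT libraries 1 and 2, 1 count in KO library 8 and 0 in the other KO libraries. Its level in WT of experiment 2 was 33.3-fold that in WT of experiment 1 (95% counting interval 12.7 to 124), at least 23.0-fold higher than in KO of experiment 1 and 147-fold that in KO of experiment 2 (26.0 to 5865). Csf3 had 29 and 7 counts (0.794 and 0.201 CPM) in WT libraries 3 and 4 and at most 2 counts in any other library. WT libraries 3 and 4 thus differed widely from each other in Csf3. Csf3 in WT of experiment 2 was 12.6-fold the level in WT of experiment 1 (3.98 to 63.9) and 41.8-fold that in KO of experiment 2 (7.03 to 1695), and at least 6.38-fold higher than in KO of experiment 1. Il34, Csf2 and Csf3 were not among the 14418 tested genes, and the ratios carry no test between replicates. Ratios with an interval used pooled counts and the values given as at least used the floor of 3 counts, so their sizes cannot be compared. Csf2 exons overlap the antisense gene Gm12223, whose reads could not be told apart from its 132 counts if strand was not used.

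Csf1r, on chromosome 18 (chr18:61100598-61132149, plus strand), encodes the receptor for CSF-1 and IL-34 and marks the macrophage lineage. It had 1560 and 1231 CPM in WT libraries 1 and 2 and 2535 and 2437 CPM in KO libraries 5 and 6. It had 2446 and 2223 CPM in WT libraries 3 and 4 and 1175 and 751 CPM in KO libraries 7 and 8. The groups were ordered like those of Csf1 in each experiment, over a much narrower range. Of the 7 macrophage markers, 3 were higher and 3 lower in KO in experiment 1 and 2 were higher and 1 lower in experiment 2, and their part in the Csf1r level was not tested. Csf1r was 1.77-fold higher in KO in experiment 1 (log2 fold change 0.82, SE 0.12, adjusted p = 0.000966) and 2.42-fold higher in WT in experiment 2 (log2 fold change -1.28, SE 0.25, adjusted p = 0.0309). The call in experiment 2 was lost without WT library 3 (adjusted p = 0.104), WT library 4 (0.0658) or KO library 8 (0.0947). The interaction was -2.11 (SE 0.30, adjusted p = 0.00187). Exons of Csf1r overlap those of Hmgxb3 on the other strand, a gene with 14596 counts in the 8 libraries beside 543113 of Csf1r.

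Csf2ra, the alpha chain that gives the GM-CSF receptor its specificity (chr19:61223957-61228429, minus strand), had the narrowest spread of the 6 tested genes over the 8 libraries (0.18 on the log2 scale). It had 112 and 102 CPM in WT libraries 1 and 2, 88.4 and 79.9 CPM in KO libraries 5 and 6, 102 CPM in each of WT libraries 3 and 4, and 104 and 125 CPM in KO libraries 7 and 8. KO lay below WT in experiment 1 and above it in experiment 2, with no overlap in either. The difference passed in experiment 1 (log2 fold change -0.36, SE 0.07, adjusted p = 0.00349) and not in experiment 2 (0.16, SE 0.13, adjusted p = 0.423). The interaction was 0.51 (SE 0.15, adjusted p = 0.0299).

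Csf2rb, the shared beta chain, had 104 and 92.5 CPM in WT libraries 1 and 2 and 114 and 125 CPM in KO libraries 5 and 6. It had 219 and 221 CPM in WT libraries 3 and 4 and 84.4 and 67.3 CPM in KO libraries 7 and 8. WT of experiment 2 stood apart from the other 3 groups. Its log2 fold change was 0.27 (SE 0.08, adjusted p = 0.0158) in experiment 1, which was lost without WT library 2 (adjusted p = 0.0978), without KO library 6 (0.0663) and with a spread shared by all 4 groups (0.0937). In experiment 2 Csf2rb was 2.9-fold higher in WT (log2 fold change -1.54, SE 0.15, adjusted p = 0.00798), and the interaction was -1.82 (SE 0.17, adjusted p = 0.00044).

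Csf2rb2, the beta chain of the mouse IL-3 receptor, had 15.8 and 15.6 CPM in WT libraries 1 and 2 and 32.5 and 36.2 CPM in KO libraries 5 and 6. It had 40.8 and 51.9 CPM in WT libraries 3 and 4 and 21.6 and 10.9 CPM in KO libraries 7 and 8. KO was above WT in experiment 1 and below it in experiment 2 without overlap. On the log2 scale KO libraries 7 and 8 differed from each other more than the other pairs. In CPM the SD was 7.6 in KO and 7.83 in WT of experiment 2. Csf2rb2 rose 2.17-fold in KO in experiment 1 (log2 fold change 1.12, SE 0.08, adjusted p = 2.14e-05). In experiment 2 the log2 fold change was -1.51 (SE 0.35) with an adjusted p of 0.0516 in edgeR, just short of the threshold. This difference passed with DESeq2 (adjusted p = 0.000145), limma-voom (0.0349) and a spread shared by 4 groups (0.00628). In edgeR it did not pass under upper-quartile scaling (adjusted p = 0.0547), the filter by 4 groups (0.0521) or no filter (0.225). Its size depended on single libraries, from -2.09 without KO library 7 to -1.10 without KO library 8. The interaction was -2.64 (SE 0.40, adjusted p = 0.00227). Csf2rb and Csf2rb2 lie 2.66 and 2.71 Mb from Mkl1 on the same chromosome, so an effect of the deletion and one of sequence linked to the targeted allele cannot be told apart for them.

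Csf3r, the G-CSF receptor (chr4:126024550-126044440, plus strand), is expressed by neutrophils and also by monocytes and macrophages. It had 78.7 and 65.7 CPM in WT libraries 1 and 2, 41.9 and 38.5 CPM in KO libraries 5 and 6, 75.5 and 52.0 CPM in WT libraries 3 and 4, and 75.3 and 62.5 CPM in KO libraries 7 and 8. KO of experiment 1 lay below the other groups, and KO and WT overlapped in experiment 2. It was 1.81-fold lower in KO in experiment 1 (log2 fold change -0.86, SE 0.10, adjusted p = 0.00032) and did not pass in experiment 2 (0.11, SE 0.21, adjusted p = 0.742), where the value turned to -0.13 without WT library 4 and to -0.03 without KO library 7. The interaction was 0.96 (SE 0.26, adjusted p = 0.0227). Most of the sum of the 10 neutrophil markers was S100a8, except in WT library 3 (S100a8 at 0.11 and Camp at 0.219 CPM). These markers summed to 0.351 to 0.399 CPM in KO and 1.17 to 1.52 CPM in WT of experiment 1, with 5 of the 10 at 0 in each. In experiment 2 they summed to 0.356 to 0.718 CPM in WT, where Csf3r was not low, and to 0.791 to 1.15 CPM in KO. Their part in the Csf3r level was not tested.

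The genes of a receptor and its ligand did not move in proportion. The ratio of Csf1r to Csf1, both per kb, was 264 and 188 in WT libraries 1 and 2 and 250 and 222 in KO libraries 7 and 8. It was 52.6 and 35.8 in KO libraries 5 and 6 and 23.3 and 20.8 in WT libraries 3 and 4. Csf1 is the divisor of this ratio and varied far more than Csf1r. The low ratio in the libraries with the highest Csf1, where Csf1r was also high, therefore restates the Csf1 level. The ratio of Csf2rb to Csf2ra, the chains of the GM-CSF receptor, was 0.366 and 0.357 in WT libraries 1 and 2, 0.509 and 0.617 in KO libraries 5 and 6, 0.844 and 0.854 in WT libraries 3 and 4, and 0.319 and 0.213 in KO libraries 7 and 8. Alpha chain transcripts exceeded beta chain transcripts per kb of exons in all 8 libraries, but per kb of the longest transcript the chains were level in WT library 3 (45.0 for Csf2ra and 44.7 for Csf2rb) and in WT library 4 (44.9 and 45.2 CPM per kb). The ratio of Csf2rb to Csf2rb2 ran from 2.25 to 4.27, and that of Csf1r to Csf3r from 7.51 in KO library 8 to 39.6 in KO library 6.

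Genes that act with these receptors were taken from 6 lists with 56 genes, 49 of them tested. In experiment 1, 17 were higher and 17 lower in KO, and in experiment 2, 7 were higher and 13 lower, with median log2 fold changes of -0.06 and -0.13 beside 0.01 for all tested genes. The share that passed was thus 34 of 49 and 20 of 49, where 55.1% and 15.8% of all tested genes passed. Calls in experiment 2 numbered 8 without WT library 3 or WT library 4, 5 without KO library 7 and 3 without KO library 8. Of the 49 genes, 5 passed in both experiments with opposite signs, 7 were lower in KO in both and 4 were higher in KO in both, beside 6.34%, 2.25% and 2.13% of all tested genes.

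Among 17 adaptors and kinases close to the receptors, 7 were higher and 5 lower in KO in experiment 1, and 2 were higher and 4 lower in experiment 2. Stat5a and Tyk2, a transcription factor and a kinase of cytokine signalling, followed Csf1 in sign. Stat5a had log2 fold changes of 0.47 (SE 0.07, adjusted p = 0.000695) and then -0.64 (SE 0.11, adjusted p = 0.0228), and Tyk2 of 0.68 and then -1.36 (adjusted p = 3.41e-05 and 0.014). Gab2, a docking protein, and Sos1, a Ras exchange factor, went the other way, with -0.26 and then 0.56 for Gab2 (adjusted p = 0.00865 and 0.04) and -0.65 and then 0.79 for Sos1 (adjusted p = 0.000776 and 0.0456). Jak2, the kinase bound by the beta chain, fell in both, by log2 fold changes of -0.37 and then -1.59 (adjusted p = 0.000911 and 0.0105). Syk was lower in both as well (-1.19 and -0.72, adjusted p = 8.72e-06 and 0.0316). Pik3cd (0.71) and Stat3 (0.47) were higher and Ptpn11 (-0.37) lower in KO of experiment 1 and did not pass in experiment 2, and of these 3 Pik3cd had an interaction that passed (-1.13, SE 0.23, adjusted p = 0.007).

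Of 10 tested attenuators, 3 were higher and 3 lower in experiment 1, and 1 was higher and 3 lower in experiment 2. Socs3, a feedback inhibitor of G-CSF receptor signalling, fell in both experiments (log2 fold change -1.90, SE 0.13, adjusted p = 5.96e-05, and -2.99, SE 0.53, adjusted p = 0.0289). Ptpn6, the phosphatase SHP-1, was lower in both (-0.81 and -0.65, adjusted p = 2.46e-05 and 0.0484), and Inpp5d, the lipid phosphatase SHIP-1, was higher in both (0.23 and 0.84, adjusted p = 0.0144 and 0.0173). Cblb, a ubiquitin ligase, rose in experiment 1 (1.26, SE 0.06, adjusted p = 2.28e-06), and Sh2b3 (0.31) rose and Dok2 (-0.63) fell there. Socs1 fell in experiment 2 (-1.61, SE 0.32, adjusted p = 0.0318). Among 3 tested genes of the shared or alternative receptor system, Adam17, a protease that sheds membrane proteins including CSF-1R, was lower in both experiments (-0.85 and -0.93, adjusted p = 0.000485 and 0.022). In experiment 2 Il3ra, the IL-3 receptor alpha chain, rose (0.51, adjusted p = 0.0451) and Sdc1, a proteoglycan that can bind IL-34, fell (-1.92, adjusted p = 0.0345). Il3 and Il5ra had 0 counts in the 8 libraries, Il5 had 5 and Ptprz1, another receptor of IL-34, had 7.

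The 6 lineage factors known to act on the receptor genes were all tested, and 4 were higher and 2 lower in KO in experiment 1, with 3 higher and 1 lower in experiment 2. Spi1 (PU.1), a main activator of Csf1r and other receptor genes, fell in both experiments (log2 fold change -0.60, SE 0.06, adjusted p = 7.69e-05, and -0.55, SE 0.12, adjusted p = 0.0397). Its interaction did not pass (0.03, SE 0.11, adjusted p = 0.832). Csf1r changed sign between experiments, and the part of Spi1 in the Csf1r level was not tested. Cebpa and Irf8, factors of myeloid fate, were higher in KO in both experiments. Irf8 had log2 fold changes of 0.31 and 0.75 (adjusted p = 0.00706 and 0.0326), and Cebpa of 0.24 and 1.62 (adjusted p = 0.0139 and 0.0445). Cebpb fell in experiment 1 (-1.56, adjusted p = 1.75e-06) and had -0.04 in experiment 2 (adjusted p = 0.838), and its interaction passed (1.51, SE 0.12, adjusted p = 0.000275). Runx1 rose in experiment 1 (0.27).

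Of 9 known response genes of these cytokines, 6 were lower and 1 higher in KO in experiment 1, and 2 were lower in experiment 2. Pim1, a kinase gene induced by STAT5, fell in both (-1.26, SE 0.06, adjusted p = 2.79e-06, and -1.12, SE 0.12, adjusted p = 0.0105). Myc and Osm fell in experiment 1 (-1.90 and -1.46), with -0.13 and 0.50 in experiment 2, where neither passed. Egr2, which CSF-1 induces, rose in experiment 1 (0.71) and had -2.07 in experiment 2 (adjusted p = 0.0537), and Mitf fell in experiment 2 (-0.78). Of the 6 genes known to be high in marrow cultures grown with GM-CSF, 4 were tested, and 2 were higher in experiment 1 and 1 was lower in experiment 2. Itgax, which encodes the integrin CD11c, had a mean of 2.77 CPM in WT and 24.2 CPM in KO of experiment 1 and of 38.8 CPM in WT and 1.26 CPM in KO of experiment 2. Its log2 fold changes were 3.11 (SE 0.29, adjusted p = 0.000712) and -4.94 (SE 0.35, adjusted p = 0.00565). Irf4 rose in experiment 1 (2.77, SE 0.24, adjusted p = 5.02e-05) and had -0.51 in experiment 2 (adjusted p = 0.391). Ccl17 and Flt3 of this list had at most 3 counts in any library.

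**Figure D4:**
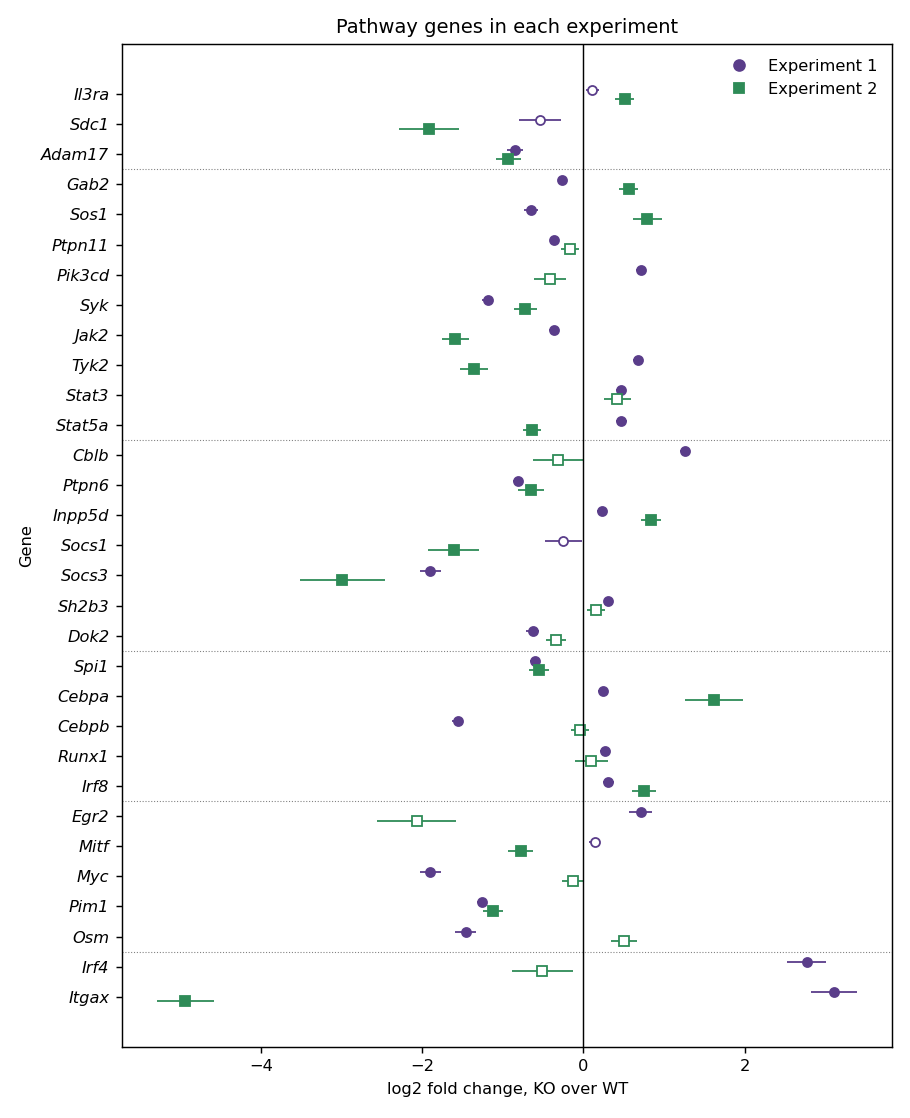
Log2 fold change of KO over WT (horizontal axis) with bars of 1 standard error for 31 pathway genes, in experiment 1 (purple circles) and experiment 2 (green squares); filled symbols passed the adjusted p threshold of 0.05, and dotted lines part the 6 lists. Itgax had the widest gap between experiments, from 3.11 to -4.94, and Spi1 and Pim1 were lower in KO in both.

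The genes whose levels ran most like those of each tested gene were found by the root mean square difference of log2 CPM over the 8 libraries, after centring each gene on its own mean. Itgax was nearest to Csf1, with a difference of 0.30 beside a spread of 2.02 of Csf1 itself, and Cst7, which encodes cystatin F, was next at 0.35. S100a4 was nearest to Csf1r (0.13 beside a spread of 0.60), Birc5 to Csf2rb (0.12 beside 0.58) and Chst11 to Csf2rb2 (0.15 beside 0.74). Vmp1 and Plscr1 were nearest to Csf3r (0.12 each beside 0.37), and Fyttd1 and Trmt11 to Csf2ra (0.04 each beside 0.18). Itgax had 3.24 and 2.29 CPM in WT libraries 1 and 2, 19.2 and 29.3 CPM in KO libraries 5 and 6, 30.9 and 46.7 CPM in WT libraries 3 and 4, and 1.58 and 0.935 CPM in KO libraries 7 and 8. These likenesses describe 8 libraries that share their genotype and experiment, and nearest genes were picked among all tested genes.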

How the data were processed

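RNA of BMDMs was made into 8 libraries with a stranded mRNA kit. The submitters' processing notes name STAR 2.7.0f, Subread 1.6.4 with featureCounts, DESeq2 1.22.1 and GRCm38. The annotation release and the strand setting are not given in the sources used here. The authors deposited raw counts per gene, 1 table per experiment. They also deposited normalized counts, a signal that equals those counts divided by a factor of 0.891 to 1.09 set within each experiment. These served to check the unit only, and the tests used the counts. Groups came from the labels.

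Counts were tested with edgeR 4.0.16 in R 4.3.3 (filterByExpr by genotype over 8 libraries, TMM, robust quasi-likelihood F test, Benjamini-Hochberg adjustment over 14418 genes, threshold 0.05). Each experiment was fitted alone, and all libraries were fitted with experiment and genotype, with and without their interaction. SE was obtained as the absolute log2 fold change over the root of F. Log2 CPM used a prior count of 2. Replicate libraries differed by more than counting noise (chi-square per gene 14.5 and 11.0 between WT and KO replicates of experiment 1, 61.2 and 73.1 in experiment 2). At 33977799 to 41584540 counts per library, precision was limited by the 2 libraries per group rather than by depth, except for Il34, Csf2 and Csf3, for which ratios have exact 95% intervals of pooled counts. The smallest two-sided exact permutation p with 2 against 2 libraries is 0.333.

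When 200 of 14418 genes were given known changes in simulated counts, the edgeR fit of experiment 1 recovered 59 of 100 genes changed 2-fold and 83 of 100 changed 4-fold with 24 false calls, that of experiment 2 recovered 56 and 84 with 25, and the interaction recovered 29 and 75 with 5. All simulated libraries had the same spread per gene, while in the data replicates differed more in experiment 2. Changed genes were also far fewer than the 55.1% called in experiment 1. The recovered numbers therefore do not measure the power or false calls of each real fit.

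The members, pathway lists and markers were chosen with earlier results of these data known. Named were all members, Mkl1, in each pathway list at most 3 called genes per direction and experiment with the smallest p plus those called with opposite signs, and for each tested member the 2 genes nearest in pattern. The values of 1 pathway gene that this rule names are not reported here. Pathway membership and gene roles are textbook background. Alternatives were DESeq2 1.42.0, limma-voom (limma 3.58.1), upper-quartile scaling, other filters, a fit of 4 groups with 1 shared spread, no experiment term, an adjusted p under 0.01, a 2-fold change, the longest transcript in place of all exons, and each library left out in turn. Upstream sequences are from RefSeq (GRCm38.p6), and gene positions, exons and coding sequences from GENCODE M21 (GRCm38). Sequence was read with Biopython 1.88, and figures were drawn with matplotlib 3.10.9.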

Additional observations from a re-analysis of the deposited data

Results flagged for a closer look

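The difference between KO and WT differed between experiments for 27 genes by the edgeR interaction test (adjusted p under 0.05). These were the 6 tested members, Mkl1 and 20 of 32 named pathway genes, and naming depended on calls within the experiments. The values below are the log2 fold change in experiment 2 minus that in experiment 1. Among the colony-stimulating factors and receptors it was -7.94 for Csf1, -2.64 for Csf2rb2, -2.11 for Csf1r, -1.82 for Csf2rb, 0.96 for Csf3r and 0.51 for Csf2ra. For Mkl1 itself it was -0.79, a call that was lost without WT library 1, 2 or 4 or KO library 5 or 6 (adjusted p from 0.0587 to 0.0879).

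Among adaptors and kinases it was -2.05 for Tyk2, -1.22 for Jak2, -1.13 for Pik3cd, -1.12 for Stat5a, 0.45 for Syk, 0.81 for Gab2 and 1.43 for Sos1. Among attenuators it was -1.58 for Cblb, -1.37 for Socs1 and 0.59 for Inpp5d, and in the shared or alternative receptor system -1.40 for Sdc1 and 0.39 for Il3ra. Among lineage factors it was 1.37 for Cebpa and 1.51 for Cebpb. Among response genes it was -2.78 for Egr2, -0.93 for Mitf, 1.75 for Myc and 1.95 for Osm, and among genes known to be high in GM-CSF cultures -3.29 for Irf4 and -8.07 for Itgax. Of all tested genes 41.6% passed the same interaction test, and of the 49 tested pathway genes, named or not, 22 passed it. With 2 libraries per group, no library could be tested as lying apart from its group.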

How the results depend on the processing

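Of the values recomputed under the alternatives, 291 log2 fold changes kept their direction and their side of the threshold, 24 lost and 6 gained the call, and 8 changed sign, and 101 counts stayed within 1.5 times and 33 did not. A change of at least 2-fold left 2 of the 6 genes in experiment 1 (Csf1 and Csf2rb2), 10 pathway genes and 2231 of all genes. In experiment 2 the same limit left 9 pathway genes and 1274 of all, an adjusted p under 0.01 left 1 pathway gene (Itgax) and 234 of all, and a spread shared by 4 groups called 4899 genes. With no filter, 5 members passed in experiment 2 (Csf2 and Csf3 added) and 2 over both experiments (Csf2 and Csf3), and the filter by 4 groups called 1 over both (Csf2), while Il34 made 7 in experiment 1 under both filters. Csf2, Csf3 and Il34 entered almost only through the group in which they were high, so these calls support nothing. The interaction called 3247 genes at an adjusted p under 0.01 and 3245 at 2-fold. Over both experiments DESeq2 called 2492 genes, a fit with no experiment term 4, an adjusted p under 0.01 208 and a 2-fold change 331. Mkl1 in experiment 1 missed the threshold with the shared spread (-0.38, adjusted p = 0.0812), and over both experiments it missed the threshold in edgeR (-0.78, adjusted p = 0.0574) and in all other settings, with adjusted p from 0.0534 to 0.162, except with DESeq2 (-0.78, adjusted p = 0.00296) and with no filter (-0.79, adjusted p = 0.0379). Exchanging labels within experiments only, an alternative chosen after seeing the data, raised its exact permutation p from 0.0286 to 0.0556. The causes were not tested, beyond the added genes under the wider filters.

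Leaving out 1 library at a time, with a lone library assumed to vary like the others, gave 232 (without KO library 8), 803 (WT library 3), 842 (KO library 7) and 1388 (WT library 4) called genes and 3 to 8 pathway genes in experiment 2, 3935 (without WT library 2) to 6508 genes in the interaction and 243 (without WT library 1) to 1100 over both experiments, where each library but KO library 8 moved the count by over 1.5 times. Mkl1 ranged from -1.43 to -0.95 in experiment 2 and from -1.01 to -0.56 in the interaction, whose call was lost without WT library 1, 2 or 4 or KO library 5 or 6 (adjusted p from 0.0587 to 0.0879). Csf3r in experiment 2 ranged from -0.13 to 0.40. Over both experiments Csf1 ranged from -3.09 to 1.61, with 1.61 without KO library 7 or KO library 8, Csf1r from -0.57 to 0.17 and Csf2rb2 from -0.61 to 0.33, with 0.07 without WT library 4 or KO library 7. Upper-quartile scaling moved the median of all genes in experiment 1 from 0.01 to 0.11, and the tested members kept their signs and calls there. No paired analysis was possible because the groups compared share no replicate numbers. With 2 libraries per group, 2-fold and even 4-fold differences can be missed, as in the simulated counts, and Il34, Csf2 and Csf3 rest on few counts.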
